A study of Mus musculus with 144 samples.

Results

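The intestine of control mice that carry the CreER recombinase without the naked mole-rat hyaluronan synthase 2 transgene was compared between 24 and 6 months of age. All 12 libraries labelled as CreER intestine were used, of 144 libraries in the series: 3 from females and 3 from males at 24 months, and 3 from females and 3 from males at 6 months. The tissue label of each is small intestine, without naming a segment, and the same recombinase is present at both ages, so nothing here compares animals with and without it. The series asks why mice with the transgene (nmrHAS2) live longer and stay healthier, and its 12 nmrHAS2 intestine libraries of the same ages and sexes are given beside the controls only where a value of theirs bears on a result. Old and young mean 24 and 6 months below.

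The small intestine absorbs different substances along its length. Its proximal part takes up iron, calcium, folate and thiamine and makes transcription factors such as Pdx1 and Onecut2, whereas the ileum, its most distal part, recovers bile acids and the cobalamin complex. Paneth cells at the base of the crypts release defensins and lysozyme, and are most numerous towards the ileum. Resident macrophages, smooth muscle, lymphatic vessels and enteric neurons fill the wall beneath the epithelium.

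Levels are CPM, a gene's count relative to its library's total after TMM scaling, which evens out differences in RNA makeup between libraries. A change is the log2 difference of old minus young ± its standard error, the mean of the female and the male difference unless a sex is named. A gene rose or fell where edgeR's quasi-likelihood test gave an adjusted p under 0.05 over all 21117 genes tested. The total count per library ran from 25316700 to 82502000. The labels do not name the animal behind a library, so a p-value here reflects only how much these samples vary, which may be technical.

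Several features of the libraries run alongside age and are given before the results. The deposited counts are estimates, and the share of nonzero values with a decimal part splits the libraries at 40% into a many-fraction and a few-fraction kind. That share was 48.8 to 66.8% in the 6 young libraries and 26.8 to 29.7% in 5 of the 6 old ones. Old female 3 was of the many-fraction kind at 66.9%, and the males had no kind in common between the ages. In males, age and library kind cannot be told apart. The nmrHAS2 libraries had the same limit. Their share was 57.6 to 68.2% in the young and 27.3 to 29.3% in the old, apart from old female nmrHAS2 3 at 56%. The 3 old female CreER libraries also stood apart as a group: their correlations with the other 9 CreER libraries were 0.905 to 0.967, against 0.957 to 0.99 among those 9 (Pearson, across genes on log2 of CPM plus 1). Xist, the RNA that silences 1 X chromosome in females, was at 236, 353 and 549 CPM in old females 1, 2 and 3, and at 793, 799 and 1057 CPM in young females. The Y-linked genes Ddx3y, Uty and Eif2s3y together were at 0 CPM in old female 1 and in the young females, but at 9.87 and 8.39 CPM in old females 2 and 3, which is 11.3 and 9.59% of the male mean of 87.5 CPM. The transcript Gm28635, chosen after its values were seen, was at 0 CPM in the 3 old females and at 6.92 to 53.7 CPM in the other 21 intestine libraries of both genotypes. Most ileum and Paneth cell genes were high, and several proximal genes low, in the same 3 libraries (values with each group of genes). The labels name neither the segment nor the animal, so in females age cannot be told apart from a difference in the segment or in the source of the tissue sampled. Every rise and fall below is a difference between the libraries of the 2 ages and is to be read with this limit. The part of these features in the results was not tested beyond the values given below, which include counts without old females 2 and 3.

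With both sexes weighted equally, 696 genes rose and 1079 fell with age, which is 3.3% and 5.11% of the genes tested and 8.41% together. Changes were larger in females. In females alone 1777 genes rose and 2721 fell (8.42% and 12.9%, together 21.3%), whereas in males edgeR called 0 genes (0%), with 1353 at an unadjusted p under 0.05 and 181 called by DESeq2. Of the 1775 genes called over both sexes, 1602 were also called in females, 1310 had a female change at least 2 times as large as the male one, and the median size of the change was 1.46 in females and 0.34 in males. The sign was the same in both sexes for 1538 of them and opposite for 237. The difference in ageing between the sexes was itself called for 981 genes (4.65% of those tested), with the female change above the male one in 311 (1.47%) and below it in 670 (3.17%). The median change over all genes tested was -0.02. By edgeR 5347 of the 21117 genes were at an unadjusted p under 0.05 over both sexes. DESeq2 called 1098 higher and 1625 lower of 21059 genes. Counts for the gene lists below are to be read beside these values and the 3.3% that rose and 5.11% that fell.

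The count moved with single libraries and with library kind. Leaving out 1 library gave 770 calls without old female 2, 948 without old male 2, 1027 without young female 1, 1116 without old female 1, 1133 without young male 1 and 1133 without young male 2, and it stayed within 1.5 times of 1775 without each of the other 6 CreER libraries. Without old females 2 and 3, edgeR called 1248 of 22447 genes (301 or 1.34% rose and 947 or 4.22% fell, 5.56% in all), 925 of them with the same sign as among the 1775. With library kind as a term it called 22 (21 or 0.0994% rose and 1 or 0.00474% fell, 0.104% in all), and all 22 were among the 1775 with the same sign. Kind differed within a group only in the old females of each genotype. The term is therefore estimated from those libraries and carried over to the males, where it cannot be checked. Old female 3 against the 3 young females, all of the many-fraction kind, gave 486 calls (408 or 1.93% rose and 78 or 0.369% fell, 2.3% in all), of which 354 were among the 1775 with the same sign. That comparison has 1 old library, so the spread behind it comes mostly from other groups.

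**Figure D1:**
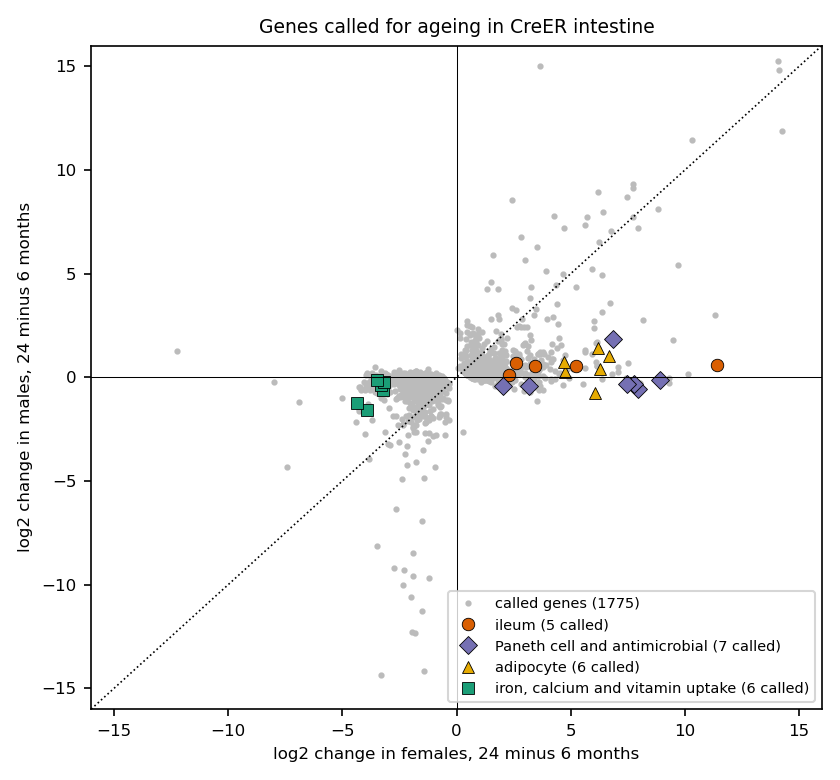
Each point is 1 of the 1775 genes called for ageing in CreER intestine, with its log2 change (24 minus 6 months) in females on the horizontal axis and in males on the vertical axis; the dotted line marks equal change. Called genes of the ileum, Paneth cell, adipocyte and iron, calcium and vitamin uptake lists lie farther from 0 in females than in males. Their male changes run from -1.57 (Trpv6) to 1.84 (Defa34), while the points farthest from 0 on the vertical axis are other genes.

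Genes of the ileum were among the rises. Of 12 ileum genes, all tested, 5 rose and 0 fell with a median change of 1.80, and the medians were 3.21 in females and 0.33 in males. By edgeR 8 were higher and 0 lower at an unadjusted p under 0.05, and DESeq2 called 8 higher and 0 lower. In females alone 10 of the 12 rose, and in all 12 the old females lay above the young females, as in 20.7% of all genes. Summed over the 12 genes the level was 5824, 4045 and 4367 CPM in old females 1, 2 and 3. In the other 9 CreER libraries it was 268 to 797 CPM, so the old females did not overlap with any other group.

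Plb1, a phospholipase of the brush border, was at 958, 517 and 632 CPM in the 3 old females. It was at 0.178, 0.188 and 0.627 CPM in old males, 0.0627, 0.311 and 0.356 CPM in young females and 0.148, 0.234 and 0.215 CPM in young males. Every library outside the old females was below 1 CPM. The change of 5.99 ± 0.58 (adjusted p = 1.96e-05) was made of 11.40 ± 0.76 in females and 0.58 ± 0.79 in males, and the sexes differed (adjusted p = 1.35e-05). Plb1 was also called with library kind as a term (5.22 ± 0.63, adjusted p = 0.000467) and without old females 2 and 3 (adjusted p = 7.04e-05).

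Slc10a2, the transporter that takes bile acids up from the ileal lumen, was at 25.1, 42.1 and 38.6 CPM in old females and at 0.776 to 3.19 CPM in the other CreER libraries. It rose by 2.90 ± 0.39 (adjusted p = 0.000597), with 5.23 ± 0.60 in females and 0.56 ± 0.54 in males. Naaladl1, an ileal peptidase, was at 826, 523 and 677 CPM in old females against 12.3 to 85.2 CPM elsewhere and rose by 1.98 ± 0.50 (adjusted p = 0.0219). Clec2h, a lectin-like gene of the epithelium, was at 1866, 1814 and 1594 against 189 to 478 CPM and rose by 1.21 ± 0.30 (adjusted p = 0.0178). For all of these the 3 old females lay above the 9 other libraries, and the old males overlapped with the young.

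Another 5 ileum genes, Cubn, Amn, Slc34a2, Pyy and Slc51a, were highest in the old females but did not pass over both sexes. Cubn and Amn form the receptor for the cobalamin complex. Cubn was at 1083, 360.0 and 554 CPM in old females and 3.33 to 127 CPM elsewhere, and Amn at 62.1, 31.1 and 31.1 against 6 to 16.8 CPM. Slc34a2, a phosphate transporter, was at 740.0, 441 and 560.0 CPM in old females and 0.149 to 10.4 CPM elsewhere (adjusted p = 0.0825 over both sexes, 0.0243 in females). Pyy, a hormone of distal enteroendocrine cells, was at 4.2, 4.09 and 4.31 against 0.267 to 2.79 CPM. Slc51a, the partner of Slc51b in bile acid export, was at 154, 143 and 144 against 25.1 to 60.7 CPM.

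**Figure D2:**
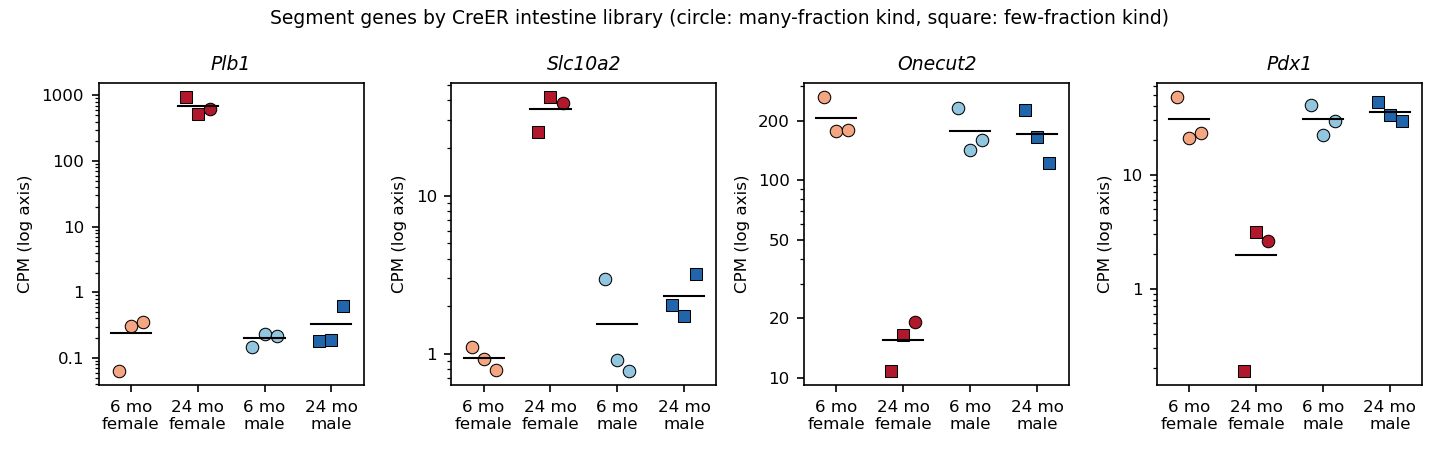
CPM on a log axis of 2 ileum genes (Plb1, Slc10a2) and 2 proximal genes (Onecut2, Pdx1) in each of the 12 CreER intestine libraries, by age and sex; lines are group means, circles many-fraction and squares few-fraction libraries. The 3 old females are above all other libraries in Plb1 and Slc10a2 and below all others in Onecut2 and Pdx1, and old female 3, the only old circle, lies with old females 1 and 2.

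Bile acid genes moved in both directions. Of 10 genes tested, several of which are also on the ileum list, 3 rose and 2 fell (median 0.63, with 1.24 in females and -0.04 in males). Over all genes tested 3.3% rose and 5.11% fell. Slc51b, a subunit of the transporter that passes bile acids on to the blood, was at 102, 132 and 93.8 CPM in old females and 10.2 to 29.5 CPM in the other CreER libraries, and rose by 1.63 ± 0.30 (adjusted p = 0.00446). Nr1h4, the nuclear receptor for bile acids, was at 51.4, 59.4 and 47 against 18 to 29.6 CPM and rose by 0.57 ± 0.15 (adjusted p = 0.0274). Nr0b2, a repressor that this receptor is known to induce, was at 0.0236, 0.471 and 0.271 CPM in old females and 1.24 to 5.04 CPM elsewhere, and fell by 2.13 ± 0.40 (adjusted p = 0.00451). Abcc3, a basolateral exporter, fell by 0.74 ± 0.19 (adjusted p = 0.0246), from 82.5 to 177 CPM in the young to 47.2, 42.5 and 51 CPM in old females, with old males at 154, 135 and 111 CPM.

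Fabp6 and Fgf15 are textbook ileal targets of the bile acid receptor: Fabp6 binds bile acids inside the cell, and Fgf15 is the hormone that lowers their synthesis in the liver. Fabp6 was at 2.05, 32.2 and 33.7 CPM in old females 1, 2 and 3 and at 0 to 0.15 CPM in the other CreER libraries. Fgf15 was at 1.91, 5.18 and 4.31 CPM in the same 3 libraries, at 0 in 8 of the other 9 and at 0.0424 CPM in the remaining one. Fabp6 did not pass over both sexes (adjusted p = 0.0756), and for Fgf15 no change over both sexes can be estimated with so many libraries at 0. Both passed in females (adjusted p = 0.000195 and 8.83e-05). Old female 1, with the lowest Fabp6 and Fgf15 of the 3, had the highest Plb1, Cubn and Naaladl1.

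Promoters of Fabp6 and Slc51b are shown because both genes were high in the same 3 libraries and both hold a relaxed form of the inverted repeat that the bile acid receptor is known to bind. Each runs from 250 bases before to 50 after the RefSeq gene start (assembly GRCm38.p6), 5′ to 3′ along the gene, with the matches in capitals. Fabp6 is at chr11:43601513-43601812 (- strand) and Slc51b at chr9:65422724-65423023 (- strand).
Fabp6 promoter: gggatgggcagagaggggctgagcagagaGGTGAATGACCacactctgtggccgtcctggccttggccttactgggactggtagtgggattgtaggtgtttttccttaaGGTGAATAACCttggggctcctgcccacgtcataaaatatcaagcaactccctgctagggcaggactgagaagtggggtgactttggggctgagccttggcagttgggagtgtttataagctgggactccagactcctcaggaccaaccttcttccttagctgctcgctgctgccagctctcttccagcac
Slc51b promoter: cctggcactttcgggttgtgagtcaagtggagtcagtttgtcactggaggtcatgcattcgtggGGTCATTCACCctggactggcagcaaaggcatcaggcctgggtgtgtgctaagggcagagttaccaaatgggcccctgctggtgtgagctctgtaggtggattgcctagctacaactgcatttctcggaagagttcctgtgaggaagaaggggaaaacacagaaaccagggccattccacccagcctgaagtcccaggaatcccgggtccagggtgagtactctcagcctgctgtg
The motif searched was an inverted repeat of GGTNA, on both strands: GGTNA, 1 free base, then its reverse complement TNACC. It matched 86 of 32851 promoters of this length (0.262%). It matched 2 of the 8 bile acid genes with a promoter in the table, starting 221 and 141 bases before the gene start in Fabp6 and 186 before it in Slc51b. The same arrangement of the full half-site AGGTCA was searched too and matched 3 of all promoters and none of these genes. A match describes these letters in this window and says nothing about binding in these samples.

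Some proximal genes fell. Of 12 proximal small intestine genes, 4 fell and 0 rose (median -0.38; -0.77 in females and -0.02 in males), where 5.11% of all genes tested fell. By edgeR 0 were higher and 4 lower at an unadjusted p under 0.05, and DESeq2 called 0 higher and 4 lower. The transcription factor Onecut2 was at 10.8, 16.5 and 19.1 CPM in old females and 123 to 264 CPM in the other CreER libraries. It fell by 1.89 ± 0.27 (adjusted p = 0.000734), and the sexes differed (adjusted p = 0.00142). Pdx1, which specifies duodenum and pancreas, was at 0.189, 3.13 and 2.64 CPM in old females and 21 to 48.1 CPM elsewhere, and fell by 1.87 ± 0.40 (adjusted p = 0.00826). The old females lay below every other library in both. Gata4, another factor of the proximal epithelium, was at 46.8, 39 and 43.1 against 65 to 97.2 CPM without passing (adjusted p = 0.21).

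Several genes of iron, calcium and vitamin uptake fell as well. Of 20 tested genes of iron, calcium and vitamin uptake, 6 fell and 0 rose, where 5.11% of all genes tested fell. The median was -0.47, with -1.06 in females and -0.19 in males. By edgeR 1 was higher and 10 lower at an unadjusted p under 0.05, and DESeq2 called 1 higher and 8 lower. The iron exporter Slc40a1 was at 14.3, 35.5 and 37.3 CPM in old females and 125 to 521 CPM elsewhere, and fell by 1.90 ± 0.40 (adjusted p = 0.00776). S100g, the calcium-binding protein of absorbing cells, was at 0.637, 19.5 and 20.4 against 93.6 to 646 CPM and fell by 2.81 ± 0.73 (adjusted p = 0.0238). Young female 1 and young male 1 were its highest libraries. The folate transporter Slc46a1 was at 11.3, 17.1 and 17.8 CPM in old females against 36.6 to 232 CPM (adjusted p = 0.0339), and the thiamine transporter Slc19a3 at 0.165, 1.86 and 2.56 against 8.73 to 29.1 CPM (adjusted p = 0.0258). The calcium channel Trpv6 and Hamp2, a hepcidin paralogue, were the other members that fell. Slc40a1 and Trpv6 are on this list and the proximal one. Amino acid and peptide uptake did not share these falls. Of its 18 genes 1 rose and 0 fell (median 0.33, with 0.84 in females and 0.09 in males). At an unadjusted p under 0.05 by edgeR, 4 were higher and 1 lower. In females 10 of the 18 were higher in all old libraries than in any young one (20.7% of all genes) and 1 lower (24.8%). The summed level was 11195, 8067 and 8708 CPM in old females and 1927 to 4847 CPM in the other CreER libraries.

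Some detoxifying enzymes fell. Of 30 genes of xenobiotic metabolism and transport, 6 fell and 0 rose, where 5.11% of all genes tested fell. The median was -0.64, with -1.07 in females and -0.19 in males. By edgeR 1 was higher and 11 lower at an unadjusted p under 0.05, and DESeq2 called 1 higher and 8 lower. Gstm3, a glutathione transferase, was at 21.9, 37.6 and 30.9 CPM in old females, 293, 44.5 and 164 CPM in old males and 90.8 to 307 CPM in the young, and fell by 1.46 ± 0.38 (adjusted p = 0.0231). Gsta1, of the same enzyme family, was at 18.9, 75.7 and 49.1 CPM in old females and 237 to 500.1 CPM in the young (adjusted p = 0.0391). Old male 2 was lower than the other old males in both, at 44.5 and 96.7 CPM. The carboxylesterase Ces1f, the receptor Ahr, the glucuronosyl transferase Ugt2b5 and the quinone reductase Nqo1 were the other 4 that fell. In nmrHAS2 animals 3 members fell, among them Gstm3 by 1.74 ± 0.38 (adjusted p = 0.0106).

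Markers of neighbouring organs were read beside the segments. Of 20 large intestine genes 11 were tested, with 0 calls (1 at an unadjusted p under 0.05 and 1 by DESeq2). The colonic genes Hoxb13, Hoxd10, Hoxd11, Hoxd12, Hoxd13 and Car1 stayed at or below 0.178 CPM in every CreER library. Exocrine pancreas transcripts were abundant in most libraries. Summed over 17 genes they were at 59.5, 12532 and 9534 CPM in old females and 98818, 47576 and 33712 CPM in young females. They were at 74797, 99043 and 420896 CPM in old males and 156485, 284906 and 234756 CPM in young males. Of 17 tested, edgeR called 0 (5 lower at an unadjusted p under 0.05 and 3 lower by DESeq2), with a median of -1.60. Without old females 2 and 3, 15 of the 17 fell, with old female 1 as the only old female left. Try10, a trypsinogen, and Rbpjl, a factor of pancreatic acinar cells, were not on that list, and both fell, by 2.21 ± 0.59 and 2.17 ± 0.58 (adjusted p = 0.0263 and 0.0263). In these bulk samples fewer cells of a type and less RNA per cell cannot be told apart.

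**Figure D3:**
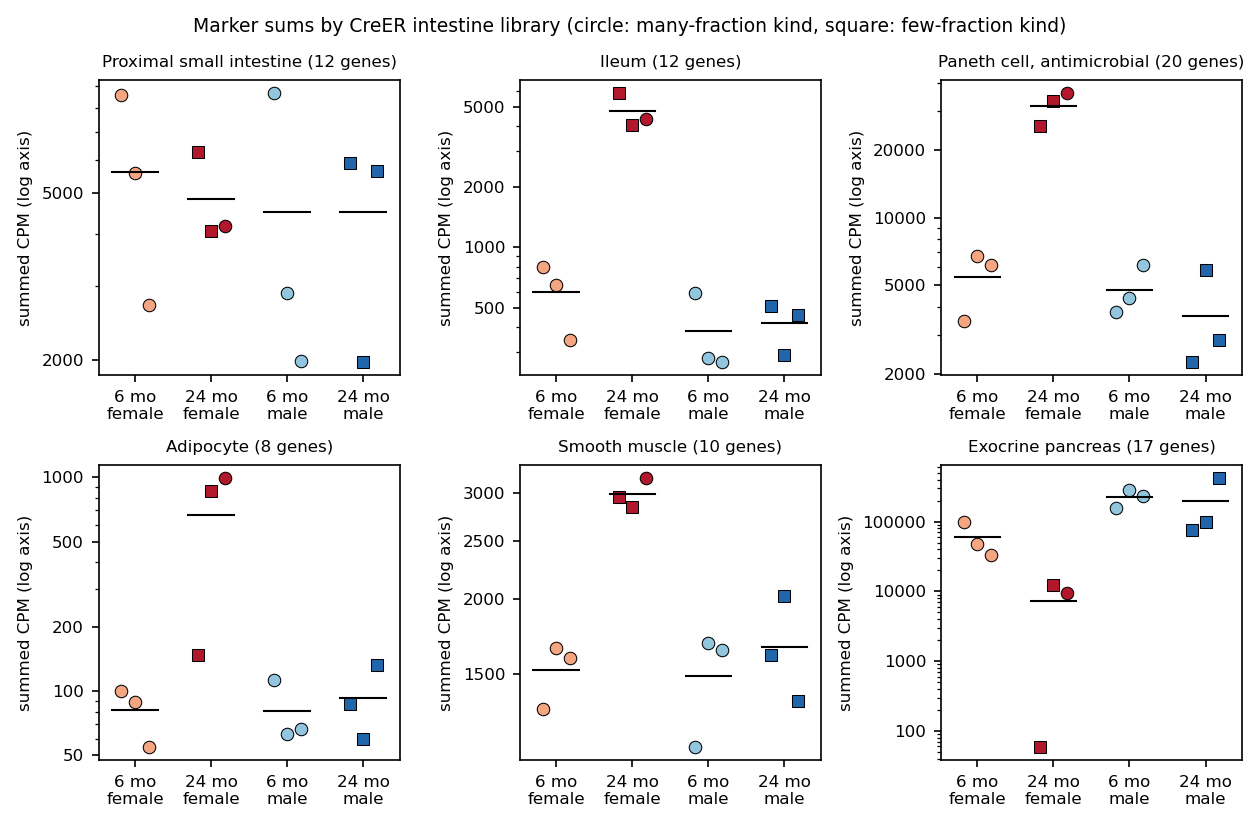
Summed CPM on log axes of 6 marker lists in each of the 12 CreER intestine libraries, by age and sex; lines are group means, circles many-fraction and squares few-fraction libraries. Ileum, Paneth cell and smooth muscle sums are highest in the 3 old females, adipocyte sums are high in 2 of them, exocrine pancreas sums are lowest in the 3 old females, and the proximal sum, carried by abundant genes such as Apoa4 and Lct, overlaps between all groups.

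Most Paneth cell genes rose in females. Of 20 genes, 7 rose and 0 fell (median 0.96; 2.16 in females and -0.40 in males), against 3.3% of all genes. By edgeR 13 were higher and 0 lower at an unadjusted p under 0.05, and DESeq2 called 12 higher and 0 lower. In males 6 of the 20, among them Lyz1 and Itln1, were lower in all 3 old libraries than in any young one (5.55% of all genes were), and 1 was higher (6.35%). In females 18 were higher in this way (20.7%) and 0 lower (24.8%). By the test in females alone 16 of the 20 rose, and the difference between the sexes was called for 14. Many of the 20 are defensins, and similar copies can share reads, so these are not counts of independent genes. With library kind as a term 4 rose, and without old females 2 and 3, 6 rose. The summed level was 25576, 33147 and 35916 CPM in old females and 2269.8 to 6759 CPM in the other CreER libraries.

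Defa20, a cryptdin, was at 1642, 2321 and 3634 CPM in old females and 3.93 to 16.7 CPM elsewhere, and rose by 3.68 ± 0.47 (adjusted p = 0.000331), with 7.94 ± 0.80 in females and -0.59 ± 0.60 in males. Defa21 was at 1638, 2356 and 2825 against 2.96 to 19.2 CPM and Defa22 at 1152, 1803 and 2194 against 4.22 to 16.1 CPM. Both are uncertain as single genes because near-identical copies can share reads. Defa34 was the one list member that was higher in the old of both sexes, at 604, 866 and 311 CPM in old females, 8.56, 38.1 and 11.3 CPM in old males and 3.16 to 7 CPM in the young. It rose by 4.36 ± 0.50 (adjusted p = 0.000136), and the sexes differed (adjusted p = 0.00746).

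The coding sequences of Defa21 and Defa22 are shown to make that uncertainty visible. Both come from the GENCODE M21 transcripts (GRCm38), are the longest open reading frame of the first transcript, and run 5′ to 3′, with the positions that differ in capitals. Defa21 lies at chr8:21025545-21026516 (+ strand) and Defa22 at chr8:21162277-21163249 (+ strand).
Defa21: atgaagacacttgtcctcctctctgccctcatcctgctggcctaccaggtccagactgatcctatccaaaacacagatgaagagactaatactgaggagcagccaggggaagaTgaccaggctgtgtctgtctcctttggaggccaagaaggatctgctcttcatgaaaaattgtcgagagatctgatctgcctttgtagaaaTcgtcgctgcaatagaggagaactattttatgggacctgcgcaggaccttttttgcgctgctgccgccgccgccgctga
Defa22: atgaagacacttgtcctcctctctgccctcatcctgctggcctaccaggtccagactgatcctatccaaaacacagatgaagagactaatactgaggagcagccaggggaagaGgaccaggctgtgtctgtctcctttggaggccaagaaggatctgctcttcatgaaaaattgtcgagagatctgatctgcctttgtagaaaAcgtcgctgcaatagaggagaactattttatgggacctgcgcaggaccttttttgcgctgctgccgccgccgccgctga
They differ at 2 of 282 positions, an identity of 99.3%. A read from the coding sequence that covers neither position fits both genes equally well, and the deposited estimates split such reads by model. The share of such reads was not measured.

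Several Paneth cell products outside the defensin family were also highest in the old females. Ang4, a bactericidal ribonuclease, was at 543, 682 and 671 CPM in old females and 32.3 to 90.6 CPM elsewhere and rose by 1.37 ± 0.30 (adjusted p = 0.00979). Lyz1, the Paneth cell lysozyme, was at 5766, 7519 and 6767 against 707 to 1858 CPM, and Mmp7, the protease that activates cryptdins, at 173, 249.7 and 240.4 against 17 to 50.6 CPM. Neither passed over both sexes (adjusted p = 0.0918 and 0.0519), with male changes of -0.59 ± 0.41 and -0.38 ± 0.50 opposite in sign to the female ones of 2.17 ± 0.42 and 2.66 ± 0.53. Reg3b and Reg3g, lectins that respond to bacteria, did not follow this order: old male 2 was at 1887 and 618 CPM, within or above the old females.

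Other epithelial genes named by size shared the female pattern. Slc5a8, a sodium-coupled carrier of short-chain fatty acids and lactate, was at 259, 234 and 221 CPM in old females and 0.111 to 2.22 CPM elsewhere. Tmigd1, an epithelial adhesion molecule, was at 91.1, 96 and 106 against 0.0779 to 1.26 CPM. Fam151a was at 85.5, 66.4 and 60.2 against 0.149 to 0.815 CPM, and Gsdme, a pore-forming gasdermin, at 46.9, 51.6 and 48.5 against 2.74 to 4.93 CPM. All 4 rose over both sexes (adjusted p from 1.96e-05 for Fam151a to 0.0125 for Slc5a8), and their male changes lay between 0.15 and 1.79. Mgat4c, a glycosyltransferase, also rose (3.78 ± 1.05, adjusted p = 0.0311). Among the falls were Ros1, a receptor tyrosine kinase (0.755, 0.719 and 0.407 CPM in old females, 2.68, 5.98 and 2.96 CPM in old males and 5.2 to 13.6 CPM in the young), and Afp, alpha-fetoprotein (0.684, 1.29 and 1.22 CPM in old females, 9.4, 2.9 and 10.4 CPM in old males and 8.45 to 19.6 CPM in the young), with adjusted p of 0.000485 and 0.00365. Otop3, a proton channel, fell by 2.15 ± 0.52 (adjusted p = 0.0176).

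Adipocyte genes rose on the strength of old females 2 and 3. Of 8 adipocyte markers, 6 rose and 0 fell (median 2.70; 5.40 in females and 0.32 in males), and without those libraries 1 rose. By edgeR 7 were higher and 0 lower at an unadjusted p under 0.05, and DESeq2 called 6 higher and 0 lower. Over all genes tested 3.3% rose. Adipoq, the adipocyte hormone adiponectin, was at 3.73, 59.7 and 72.4 CPM in old females 1, 2 and 3 and 0.0595 to 3.88 CPM elsewhere. Fabp4, a fatty acid binding protein, was at 26, 306 and 348 against 4.89 to 28.3 CPM, and was the member that still passed without old females 2 and 3 (adjusted p = 0.0116). Cfd and Retn had the same 2 high libraries. So had 3 genes outside the list that were named by size: Scd1, a fatty acid desaturase, at 57.2, 1252 and 1622 CPM, Car3, a carbonic anhydrase abundant in fat, at 14.5, 345 and 422 CPM, and B3galt2 at 1.75, 20 and 23.3 CPM. Each was higher in old females 2 and 3 than in old female 1. Old females 2 and 3 are also the 2 female libraries with Y-linked transcripts.

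Complement and inflammatory genes rose in part, where 3.3% of all genes tested rose. Of 17 complement genes 5 rose and 0 fell (median 0.52); by edgeR 9 were higher and 0 lower at an unadjusted p under 0.05, and DESeq2 called 6 higher and 0 lower. Cfd, the complement factor D of fat, is one of the 5. C3, the central complement protein, was at 191, 431 and 529 CPM in old females, 67.8, 147 and 121 CPM in old males, 45, 50.7 and 48.5 CPM in young females and 43.9, 98.5 and 77.2 CPM in young males, and rose by 1.81 ± 0.30 (adjusted p = 0.00258). Without old females 2 and 3, 2 complement genes passed, C3 (adjusted p = 0.0227) and C2 (adjusted p = 0.0194). C3 also rose in nmrHAS2 animals, by 1.06 ± 0.29 (adjusted p = 0.0391). Of 29 inflammatory and senescence genes 5 rose and 0 fell (median 0.63); by edgeR 12 were higher and 1 lower at an unadjusted p under 0.05, and DESeq2 called 7 higher and 0 lower. Nos2, the inducible nitric oxide synthase, was at 70.9, 165 and 253 CPM in old females, 5.41, 30.5 and 5.01 CPM in old males and 3.81 to 8.88 CPM in the young. Duox2, an epithelial oxidase, was at 59.4, 47.2 and 69.7 CPM in old females, 8.92, 71.4 and 6.21 CPM in old males and 5.98 to 14.9 CPM in the young. In both genes old male 2 was the highest old male. Without old females 2 and 3 their adjusted p was 0.107 and 0.115.

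Smooth muscle genes were higher in old females. Of 10 genes 4 rose and 0 fell (median 0.66, with 1.06 in females and 0.10 in males), where 3.3% of all genes tested rose. By edgeR 7 were higher and 0 lower at an unadjusted p under 0.05, and DESeq2 called 5 higher and 0 lower. Myh11, the smooth muscle myosin, was at 1153, 1168 and 1242 CPM in old females and 369 to 773 CPM elsewhere and rose by 0.73 ± 0.19 (adjusted p = 0.0252). The summed level was 2952, 2844 and 3177 CPM in old females and 1135 to 2025 CPM in the other libraries. The adjusted p of Myh11 was 0.879 with library kind as a term and 0.0907 without old females 2 and 3. Of 26 collagen and matrix remodelling genes 2 fell, Col1a1 and Col15a1, and 0 rose, where 5.11% of all genes tested fell. Col1a1, the main fibrillar collagen chain, fell by 1.24 ± 0.31 (adjusted p = 0.0194), with 6.67, 11.7 and 14.3 CPM in old females, 27.3, 51 and 36.6 CPM in old males and 33.5 to 68.5 CPM in the young.

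Some genes separated the ages in both sexes. The old and young groups did not overlap in either sex for 265 genes that were higher at 24 months and 418 that were lower, 1.25% and 1.98% of the genes tested. Among the 1775 called genes these were 440, of which 149 rose and 291 fell. Fcna, the macrophage lectin ficolin A, was at 3.89, 8.26 and 9.9 CPM in old females and 2.29, 1.92 and 3.65 CPM in old males. It was at 0.836, 0.962 and 0.579 CPM in young females and 0.551, 0.675 and 0.677 CPM in young males. It rose by 2.62 ± 0.27 (adjusted p = 3.1e-05), with 3.22 ± 0.38 in females and 2.03 ± 0.38 in males, where the adjusted p was 0.104. It was also called with library kind as a term (2.96 ± 0.36, adjusted p = 0.000467) and without old females 2 and 3 (adjusted p = 0.000278). In the nmrHAS2 libraries it rose by 2.23 ± 0.26 (adjusted p = 0.000395), with 0.357 to 0.934 CPM in the young and 1.23 to 4.11 CPM in the old.

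Itgam, the CD11b integrin of myeloid cells, was at 23.3, 28.1 and 26 CPM in old females, 18.9, 19.7 and 17 CPM in old males, 10.1, 14.1 and 14.4 CPM in young females and 9.81, 11.9 and 11.5 CPM in young males. It rose by 0.87 ± 0.11 (adjusted p = 0.000331), with an adjusted p of 0.0527 with library kind as a term. In nmrHAS2 libraries its change was 0.29 ± 0.11 (adjusted p = 0.124), and the difference between genotypes did not pass (adjusted p = 0.068). Over the 22 macrophage and dendritic cell genes 2 rose and 1 fell (median 0.25), where 3.3% of all genes tested rose and 5.11% fell. By edgeR 7 were higher and 2 lower at an unadjusted p under 0.05, and DESeq2 called 4 higher and 1 lower. The test in females alone called 4 higher and 6 lower. In females 2 were higher in all old libraries than in any young one (20.7% of all genes) and 6 lower (24.8%). In males 7 were higher in this way (6.35%) and 1 lower (5.55%). Cd163, a scavenger receptor of resident macrophages, rose by 1.58 ± 0.32 (adjusted p = 0.00595), mostly in females (12.2, 26.7 and 24.9 CPM in old females against 2.45, 1.97 and 5.4 CPM in young ones), and rose in nmrHAS2 animals too (1.18 ± 0.31, adjusted p = 0.0325). Cd209a, a lectin of dendritic cells, fell, with 0.778, 1.41 and 1.15 CPM in old females, 3.66, 3.54 and 3.88 CPM in old males and 3.09 to 5.91 CPM in the young. The summed level of the list overlapped between ages, with 383 to 628 CPM summed in the old and 342 to 602 CPM in the young.

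Slmapos2, an RNA annotated opposite to Slmap, was at 2.78, 4.69 and 5.02 CPM in old females, 4.46, 4.36 and 3.82 CPM in old males and 1.44 to 2.2 CPM in the young, and rose by 1.35 ± 0.26 (adjusted p = 0.00476). No source used here says whether counting used strand, so its reads and those of its partner may not be separated. Nos1, the nitric oxide synthase of enteric neurons, was the gene of its list of 14 that rose (0.76 ± 0.18, adjusted p = 0.0151). Its male change of 1.16 ± 0.25 was larger than the female one of 0.35 ± 0.25, without a called difference between the sexes (adjusted p = 0.189). In males age and library kind cannot be told apart. Nos1 rose by 1.08 ± 0.18 in nmrHAS2 animals too (adjusted p = 0.00206). Among falls that separated the ages in both sexes were Cyc1, a subunit of respiratory complex III (-0.49 ± 0.11, adjusted p = 0.0146), and Tyms, thymidylate synthase (-0.46 ± 0.09, adjusted p = 0.00574).

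**Figure D4:**
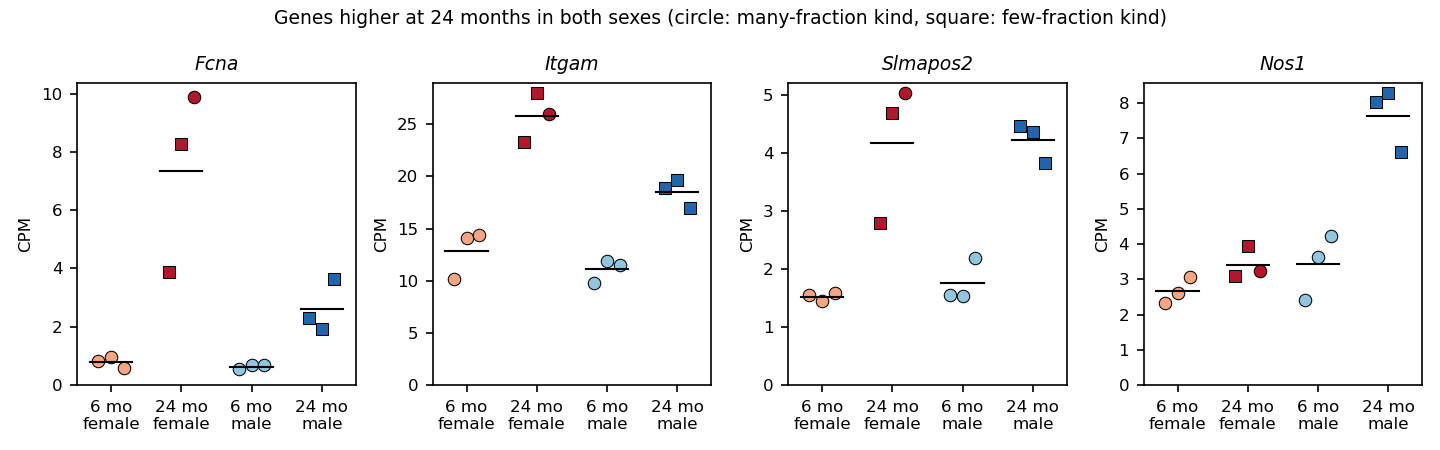
CPM of Fcna, Itgam, Slmapos2 and Nos1 in each of the 12 CreER intestine libraries, by age and sex; lines are group means, circles many-fraction and squares few-fraction libraries. In each sex the 3 old libraries lie above the 3 young ones in all 4 genes, and in Fcna and Itgam old female 3, a circle like the young, lies with the old.

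Other genes split the libraries by kind. Srp54b, a copy of the signal recognition particle gene Srp54, was at 0 in the 5 old few-fraction libraries, which allows up to 0.0708 to 0.171 CPM per library (3 counts, counting error only). It was at 44.2 CPM in old female 3 and 37.4 to 53.7 CPM in the young. Rps27rt, a retrotransposed copy of a ribosomal protein gene, and Tmem254c were likewise at 0 in those 5 libraries, and at 24.4 and 12.5 CPM in old female 3. These 3 count among the falls, and no size of change is given since 1 group is at 0. The opposite order was seen in Rpl10, a ribosomal protein, at 497, 586 and 61.4 CPM in old females 1, 2 and 3, 268, 253 and 233 CPM in old males and 27.2 to 46.2 CPM in the young. In Rpl10 old female 3 lay just above the young and far below the other old libraries, and in the other 3 genes it lay among the young. Rpl10 is not named by rule but was picked once its values were known. It has related copies elsewhere in the genome, so its reads may be shared.

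Some RNAs without a poly(A) tail rose, where 3.3% of all genes tested rose. Of 15 tested 5 rose and 0 fell (median 0.13); by edgeR 6 were higher and 0 lower at an unadjusted p under 0.05, and DESeq2 called 6 higher and 0 lower. In 6 of the 15 all old females, old female 3 included, lay above the young females, as in 20.7% of all genes. In 3 of the 15 this held in both sexes, as in 1.25% of all genes. In males 4 of the 15 were higher in all old libraries than in any young one (6.35% of all genes) and 4 lower (5.55%). The male median was -0.04. Rn7s6, a copy of the 7SL RNA of the signal recognition particle, was at 10859.6, 21993 and 64964 CPM in old males, 8.51, 23.8 and 1.35 CPM in old females and 0.759 to 1.27 CPM in the young. The 5S ribosomal RNA gene n-R5s193 was at 5.38, 14.3 and 38.7 CPM in old males, 5.14, 5.83 and 0.0339 CPM in old females and 0 to 0.0779 CPM in the young. Both have many near-identical copies, so these values are uncertain. In these 2 genes old female 3 lay near the young libraries. H3c10, a replication-dependent histone, fell by 2.17 ± 0.45 (adjusted p = 0.00717), with old female 3 at 14.5 CPM against 1.03 to 4.71 CPM in the other 5 old libraries and 8.33 to 28 CPM in the young. It is not on the list of replication-dependent histones, of which 13 were tested: 1 rose, H2ac18, and 0 fell (median -0.11), and DESeq2 called 1 higher and 0 lower.

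**Figure D5:**
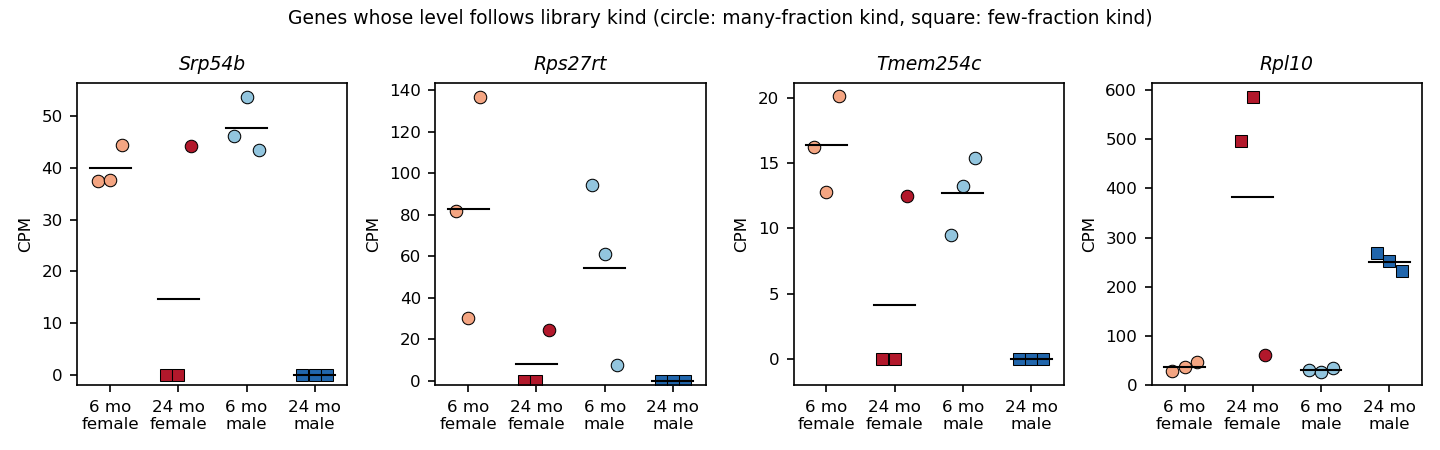
CPM of Srp54b, Rps27rt, Tmem254c and Rpl10 in each of the 12 CreER intestine libraries, by age and sex; lines are group means, circles many-fraction and squares few-fraction libraries. Old female 3, the only old library of the many-fraction kind, lies among the young libraries in Srp54b, Rps27rt and Tmem254c and just above them in Rpl10, while the 5 old squares lie apart.

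The epithelial turnover and lymphocyte lists gave few or no calls. Of 16 intestinal stem cell genes edgeR called 0 (3 lower at an unadjusted p under 0.05, 0 by DESeq2; median -0.21). The stem cell marker Lgr5 was at 8.96, 9.8 and 10.6 CPM in old females, 6.45, 7.49 and 4.27 CPM in old males and 5.8 to 11.3 CPM in the young. Of 24 proliferation genes 1 fell, Tyms (median -0.34), where 5.11% of all genes tested fell. By edgeR 0 were higher and 7 lower at an unadjusted p under 0.05, and DESeq2 called 0 higher and 1 lower. Of 30 T cell and intraepithelial lymphocyte genes edgeR called 0 (1 at an unadjusted p under 0.05, 0 by DESeq2; median 0.13). B cell genes, 14 tested, class II genes, 11 tested, and interferon response genes, 35 tested, each had 0 calls by edgeR, 0 at an unadjusted p under 0.05 and 0 by DESeq2. Class I antigen presentation had 0 calls of 19 (1 at an unadjusted p under 0.05, 0 by DESeq2). Among 20 plasma cell genes 1 rose, Ighg2b, an immunoglobulin constant region (17.5, 48.6 and 47.8 CPM in old females, 31.5, 39.9 and 44.2 CPM in old males, 20.9, 23.4 and 19.2 CPM in young females and 15.2, 19.7 and 12 CPM in young males; adjusted p = 0.0245).

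Ageing in the nmrHAS2 intestine is given beside these results. There 908 genes rose and 284 fell with age (4.3% and 1.34%, together 5.64%), and 225 genes were called in both genotypes with the same sign, 12.7% of the CreER calls and 18.9% of the nmrHAS2 calls, with 26 more of opposite sign. The age difference between genotypes was called for 333 genes (1.58%), with the nmrHAS2 change above the CreER one in 264 (1.25%) and below it in 69 (0.327%). The 12 ileum genes had a median change of 0.28 in nmrHAS2, and the summed level was 466, 478 and 492 CPM in old females and 157 to 1050.2 CPM in the other nmrHAS2 libraries. Plb1 stayed at 0 to 1.32 CPM in all 12 nmrHAS2 libraries, and its ageing differed between genotypes (adjusted p = 0.00116). Of 20 Paneth cell genes 1 rose in nmrHAS2, Nupr1 (median -0.57), and the difference between genotypes was called for 7. Fcna, Nos1 and Slmapos2 had changes of 2.23 ± 0.26, 1.08 ± 0.18 and 1.44 ± 0.26 in nmrHAS2 (adjusted p = 0.000395, 0.00206 and 0.00291), with no called difference between genotypes (adjusted p = 0.678, 0.597 and 0.949). Library kind ran alongside age in both genotypes, so a change shared by them does not tell age and kind apart.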

How the data were processed

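Total RNA of mouse intestine was sequenced, and each sample was grouped by its labels' tissue, age, sex and genotype. The authors deposited 1 table of expected counts per gene for 144 libraries (40946 genes, 0 columns without a sample). Per the submitters' processing notes the tools were Trim Galore 0.6.5 and Salmon 1.4.0; the genome build, annotation and strand setting are given in none of the sources used here, and Salmon splits reads shared between similar genes by model, which can move values of near-identical copies. Expected counts were rounded to whole numbers. With edgeR 4.0.16 in R 4.3.3 all 24 intestine libraries were fitted with 8 group means, TMM scaling, filterByExpr by group and the 2-sided quasi-likelihood F test, and p-values were adjusted by Benjamini and Hochberg with a threshold of 0.05. The fit was run on simulated counts in which 200 genes changed with age. They held no difference in library kind, segment or sex, so they do not bear on the features that run alongside age. A limit for a count of 0 is 3 counts of the library total. Symbols matched RefSeq or GENCODE for 40415 genes, and 0 pairs of libraries held identical values.

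The members, gene lists and tests were chosen with earlier results of these data known. Named were the 12 largest rises and 12 largest falls among called genes with at least 2 CPM on average and the same sign in both sexes, then up to 8 of each also called with library kind as a term, leaving out unnamed loci (Gm, Rik and bare IDs), pseudogenes, antigen receptor segments and sex-linked markers. Up to 4 members of smallest p of each list described, and members of the segment, pancreas and library kind lists, were also named. Outside this rule, and chosen after their values were seen, are Ddx3y, Uty, Eif2s3y, Xist, Rpl10, Gm28635, Adipoq, Ang4, Lyz1, Mmp7, Itln1, Reg3b, Reg3g, Nupr1, Duox2, Gsta1, Nqo1, Nr1h4, Slc46a1, Hamp2 and Lgr5. Library kind is the share of values above 0 that are not whole, above or below 40%. Alternatives were DESeq2 1.42.0, RLE size factors, no filter, a replicate block, only the groups compared, library kind as a term or held fixed, and each library left out. Counts without old female CreER 2 and 3 were added after seeing the data.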

Additional observations from a re-analysis of the deposited data

Results flagged for a closer look

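Ageing differed between the sexes for 981 genes by edgeR's test of the difference itself, and 14 of the genes named by size were among them. The female minus male change in log2 was 10.82 for Plb1, 6.81 for Tmigd1, 6.67 for Fam151a, 5.67 for Cfd, 5.37 for Car3 and 5.03 for Defa34. It was 4.43 for Scd1, 3.96 for Fabp4, 3.25 for Gsdme, 3.08 for Scgb2b15 and 3.02 for Muc16. Each of these genes had a larger rise in females. It was -3.40 for Afp, -11.35 for Rn7s6 and -3.58 for Ros1, with Rn7s6 at 10859.6 to 64964 CPM in old males and the falls of Afp and Ros1 larger in females. The adjusted p ran from 9.14e-06 for Fam151a to 0.0441 for Cfd and Scd1. In Plb1, Fam151a, Tmigd1 and Gsdme the 3 old females lay above all 9 other CreER libraries, whereas Cfd, Car3 and Scd1 were highest in old females 2 and 3. Rn7s6 is uncertain as a single gene because of its copies.

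Ageing differed between genotypes for 333 genes, among them 9 of the genes named by size. The nmrHAS2 minus CreER change in log2 was -5.81 for Plb1, -4.12 for Tmigd1, -3.41 for Defa34, -3.25 for Fam151a, -1.84 for Gsdme and -1.76 for Scgb2b15. All of these rose in CreER. It was 4.06 for Rbpjl, 1.97 for Ros1 and 4.81 for Try10, and these genes fell in CreER. The adjusted p ran from 0.00116 for Plb1 to 0.0229 for Ros1. Try10 and Rbpjl are pancreatic genes: the summed exocrine pancreas level was 117750.0, 180241 and 327202 CPM in old female nmrHAS2 libraries and 59.5, 12532 and 9534 CPM in old female CreER libraries, and its part in these differences was not tested. The old female CreER libraries enter both kinds of difference.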

How the results depend on the processing

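The count of 1775 genes called for ageing became 2723 by DESeq2, 22 with library kind as a term and 486 in females within library kind. RLE size factors (1796), no filter on low counts (1405) and only the groups compared (2310) kept it within 1.5 times. Leaving out 1 library gave 770 to 2239, with the count moved by over 1.5 times without old female 1 (1116), old female 2 (770), old male 2 (948), young female 1 (1027), young male 1 (1133) or young male 2 (1133). The 4498 calls in females became 1292 with library kind as a term, 1632 without old females 2 and 3, and 2160 to 3941 without 1 library, lowest without old female 2 and moved by over 1.5 times also without old female 1 (2756) or young female 1 (2721). The 0 calls in males became 181 by DESeq2, 5 with no filter, 82 with only the groups compared, and 0 to 2 without 1 library (2 without old male 1). The 981 calls for the sex difference became 1845 by DESeq2, 555 with no filter, 1522 with only the groups compared, 496 without old females 2 and 3, and 218 to 1136 without 1 library, with 9 libraries moving it by over 1.5 times: old female 1 (547), old female 2 (249), old male 1 (519), old male 3 (361), young female 1 (293), young female 2 (533), young female 3 (458), young male 2 (218) and young male 3 (330). The 1192 calls in nmrHAS2 became 1961 by DESeq2, 72 with library kind as a term, 591 with only the groups compared and 573 to 1588 without 1 library, moved by over 1.5 times without old male nmrHAS2 1 (573), young female nmrHAS2 1, 2 or 3 (665, 730 and 601) or young male nmrHAS2 1 or 2 (612 and 738). The 333 calls for the genotype difference became 699 by DESeq2 and 179 to 897 without 1 library, moved by over 1.5 times without old female nmrHAS2 1 (897), old male CreER 1 or 2 (218 and 188), old male nmrHAS2 1 or 3 (179 and 613), young female CreER 1 (195), young female nmrHAS2 1 or 3 (220 and 206) or young male CreER 2 (199). The cause of these shifts was not tested.

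Replicate numbers were not used as pairs in the main fit. Same-numbered libraries correlated from -0.151 to 0.36 in their deviations from the group means, with 5 of 18 pairs over 0.1. Different-numbered libraries correlated from -0.323 to 0.278. These values do not settle whether same-numbered libraries belong together. With a replicate block the counts were 1816 for ageing, 4501 in females, 2 in males, 1246 in nmrHAS2, 918 for the sex difference and 301 for the genotype difference. Of 95 named called genes, all 95 kept sign and call with RLE size factors and with DESeq2, 13 kept both with library kind as a term, 42 in females within kind and 45 without old females 2 and 3. With library kind as a term the sign turned for H2ac18 (-0.21) and Srp54b (0.039), and in females within kind for Srp54b (0.15) and Rplp2 (0.13). An alternative without libraries over 1000 CPM of pancreas genes was not run, since 1 of 24 libraries is below that level. Totals of 25316700 to 82502000 counts limit genes near 0, where a count of 0 allows up to 0.171 CPM in old male 3.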

Other observations

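A few lymphatic vessel genes and signals of the crypt niche rose. Of 7 lymphatic endothelium genes 3 rose and 0 fell by edgeR (median 0.26), where 3.3% of all genes tested rose. At an unadjusted p under 0.05, 3 were higher and 0 lower, and DESeq2 called 3 higher and 0 lower. In 3 of the 7 all old females lay above the young females, as in 20.7% of all genes. Lyve1, the hyaluronan receptor of lymphatic vessels, was at 21.2, 31.8 and 36.1 CPM in old females, 9.28, 11 and 10.8 CPM in old males and 6.38 to 11.5 CPM in the young, and rose by 1.02 ± 0.19 (adjusted p = 0.0048). Mmrn1 and Pdpn were the others, and Pdpn was higher in the old of both sexes. Without old females 2 and 3 the adjusted p was 0.0504 for Lyve1, 0.0643 for Mmrn1 and 0.266 for Pdpn. Of 29 Wnt and niche genes 3 rose and 0 fell by edgeR (median 0.01), where 3.3% of all genes tested rose. At an unadjusted p under 0.05, 5 were higher and 4 lower, where 5347 of all 21117 genes passed. DESeq2 called 3 higher and 0 lower. In females 8 of the 29 were higher and 5 lower in all old libraries than in any young one, against 20.7% and 24.8% of all genes, and the female median was -0.01. Wnt3, a signal made by Paneth cells, was at 4.79, 4.49 and 4.06 CPM in old females and 0.941 to 1.65 CPM in the other CreER libraries. Grem1, a stromal antagonist of BMP signalling, was at 84, 70.2 and 82.6 against 20.6 to 40.8 CPM, and Rspo1 at 1.23, 2.65 and 3.52 against 0.189 to 1.48 CPM. Without old females 2 and 3 the adjusted p was 0.0716 for Wnt3, 0.109 for Grem1 and 0.0834 for Rspo1.

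Hormone genes moved in opposite directions. Nts, neurotensin, a hormone of the distal small intestine, was at 39.6, 36 and 37.2 CPM in old females and 0.0376 to 1.15 CPM in the other CreER libraries, and rose by 3.02 ± 0.89 (adjusted p = 0.0421). Ghrl, ghrelin, most abundant in the stomach and upper intestine, was at 2.97, 2.68 and 2.44 CPM in old females, 5.65, 3.2 and 5.41 CPM in old males and 7.13 to 9.35 CPM in the young. It fell by 1.19 ± 0.36 (adjusted p = 0.047), and in each sex all old libraries lay below all young ones. Over 20 enteroendocrine genes 2 rose and 1 fell (median 0.05, with -0.32 in females and 0.25 in males), where 3.3% of all genes tested rose and 5.11% fell. The test in females alone called 2 higher and 4 lower. In females 4 of the 20 were higher in all old libraries than in any young one (20.7% of all genes) and 10 lower (24.8%).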
